A study of Mus musculus with 13 samples.

Results

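The members described here are 10 genes that sense bacterial cell wall and nucleic acid: 6 Toll-like receptors (Tlr1, Tlr2, Tlr3, Tlr4, Tlr5 and Tlr7), 3 proteins that bring lipopolysaccharide (LPS) to Tlr4 (Cd14, Ly96 and Lbp) and the adaptor Myd88. They were chosen by name, as a pathway, out of 53465 genes in the count table, and all 10 were among the 13545 genes with enough counts to be tested. Liver RNA was sequenced from 13 male BALB/c mice, with 1 library per mouse: 6 wild-type (WT) mice and 7 Nod2-/- mice, which lack the intracellular sensor of bacterial peptidoglycan fragments Nod2. Both groups had received the carcinogen dimethylbenz[a]anthracene (DMBA) as pups and then a high-fat diet, for 30 weeks according to the sample labels. No mouse here was free of carcinogen or on chow. Both groups are labelled as having cancer, but the paper reports liver tumors in a larger share of Nod2-/- males than of WT males so treated. It also reports greater weight gain in the Nod2-/- males. Body weight and tumor load are not given for single libraries, and their part cannot be told apart from that of genotype. The Nod2 deletion is not limited to liver cells or to one cell type.

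A Toll-like receptor is a membrane protein whose outer, leucine-rich part binds a microbial molecule and whose inner domain recruits an adaptor. Lbp, made by hepatocytes and secreted, picks up LPS and hands it to Cd14, which passes it to the pair of Tlr4 and Ly96 (also called MD-2). Tlr2 pairs with Tlr1 or Tlr6 to detect bacterial lipoproteins, Tlr5 detects flagellin, and Tlr3 and Tlr7 sit in endosomes and detect RNA. Apart from Tlr3, these receptors signal through Myd88 to the transcription factor NF-kB. The liver receives gut-derived microbial products by the portal vein, and Kupffer cells, its resident macrophages, are a main site of Cd14 and Toll-like receptor expression.

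Libraries held between 14886273 and 20579984 counts for WT mice, and between 13824780 and 19391431 counts for Nod2-/- mice. WT mouse 3 stood apart from the others: its median absolute log2 distance from the median of the other mice was 0.303, against 0.167 to 0.237 for the remaining 12 libraries. Nod2-/- mouse 7 was close to the others by that measure (0.200), but its summed neutrophil markers came to 1020 CPM, the count as a share of the library scaled to a common total. Where either library changed a call, or moved a fold change given below by over 1.5 times, the value without it is given too. Nod2 itself had at most 4 counts in a WT mouse and at most 6 counts in a Nod2-/- mouse, too few to check the genotype labels. Hepatocyte markers summed to 79300 to 170000 CPM in all 13 libraries, as the liver label requires, and no marker list of the 11 examined had a gene at 0 in every mouse.

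One stretch of sequence matters for reading the Tlr1 values. Tlr1 (chr5:64924679-64933563, minus strand) and Tlr6 (chr5:64952031-64960097, minus strand) are neighboring copies of one ancestral gene, and of the 3336 different 43-base words in Tlr1 transcripts, the length of a sequenced read, 505 also occur in Tlr6. Their coding sequences share an unbroken run of 229 bases, in which a read cannot be told apart between the genes. It lies at chr5:64925537-64925765 in Tlr1 and chr5:64953828-64954056 in Tlr6 (GRCm38, read 5′ to 3′ on the minus strand), all in the coding exon of each gene.
Tlr1 and Tlr6: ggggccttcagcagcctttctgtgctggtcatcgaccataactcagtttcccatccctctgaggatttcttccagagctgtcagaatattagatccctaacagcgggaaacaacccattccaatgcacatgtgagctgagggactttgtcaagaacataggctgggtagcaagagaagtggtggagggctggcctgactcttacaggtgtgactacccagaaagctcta
In Tlr2, Tlr5, Tlr7, Cd14 and Ly96, 0 words occurred in another gene. The share was 0.342% in Tlr4 and 0.270% in Lbp. Exons of Myd88 overlap those of Acaa1a on the opposite strand over 290 bases (11.3% of Myd88 exon bases), and exons of Tlr3 overlap Gm45542 on the opposite strand over 381 bases (7.32%). The libraries were stranded, but the counting setting is not given in the sources used here, so Tlr1, Myd88 and Tlr3 counts may hold some reads of these genes.

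None of the 10 members passed 5% FDR between Nod2-/- and WT mice (0 of 10 by edgeR's quasi-likelihood F test, p-values adjusted over all 13545 genes), where 157 genes, or 1.16% of those tested, did. At an unadjusted p under 0.05, 5 of 10 members differed, 4 higher (Cd14, Tlr2, Tlr3, Lbp) and 1 lower (Tlr5), beside 23.1% of all tested genes (12.9% higher, 10.2% lower). DESeq2, the tool named in the study's methods, called 2 of the 10, Cd14 higher and Tlr5 lower, beside 7.26% of its tested genes (3.81% higher, 3.45% lower), and limma with sample weights called 0 beside 6.22%. Without WT mouse 3, edgeR called 2 members, Cd14 and Tlr1, both higher in Nod2-/- mice, beside 8.49% of genes. Without both WT mouse 3 and Nod2-/- mouse 7 it called the same 2 beside 4.23%, and without Nod2-/- mouse 7 alone it called 0 beside 0.403%. The members' median log2 fold change was 0.42, against 0.02 over all tested genes, with 7 members above 0 and 3 below, where 52.3% of all genes were above 0.

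**Figure D1:**
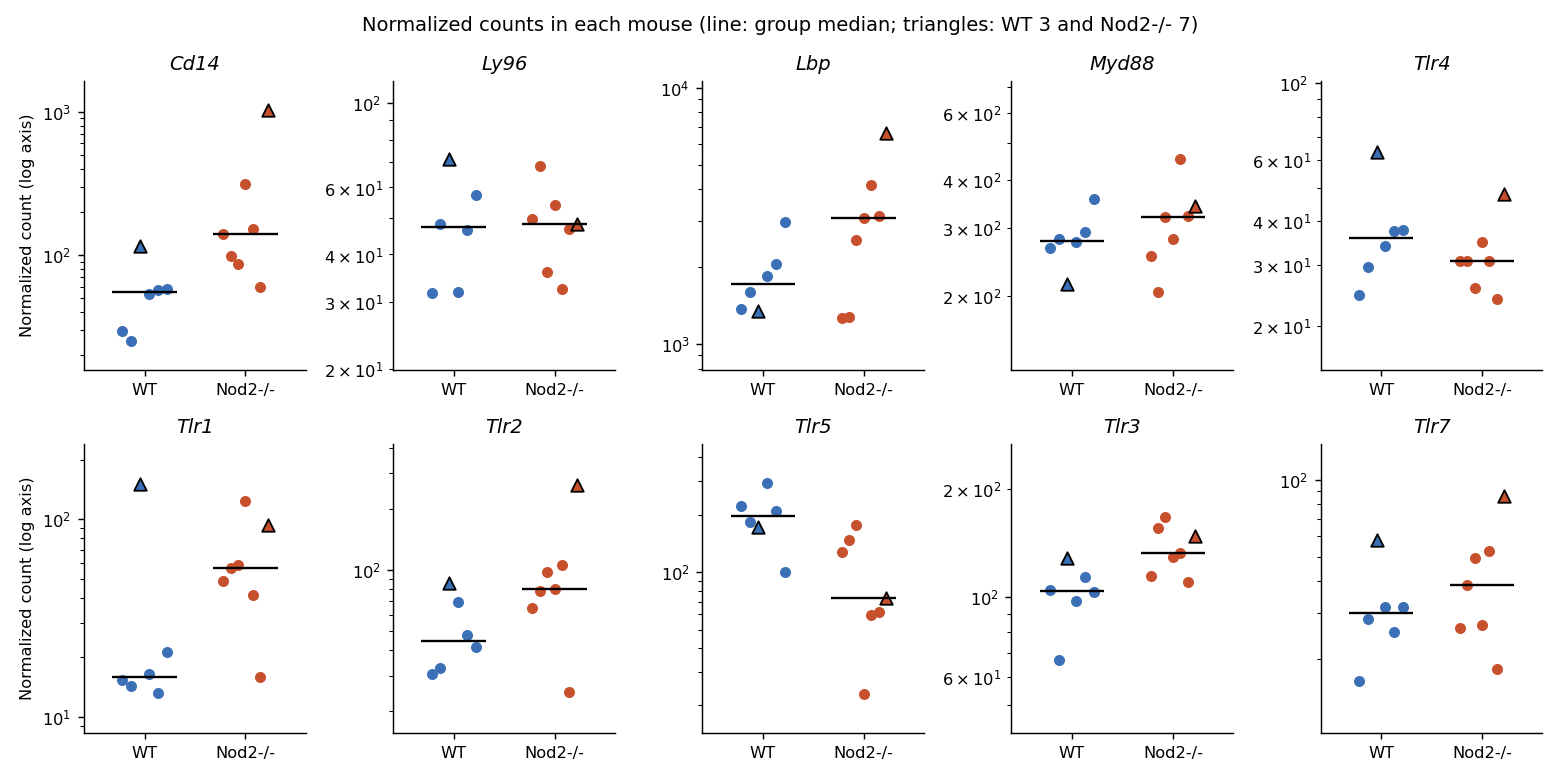
Normalized counts (log axis, counts scaled to a common library size) of the 10 members in 6 WT mice and 7 Nod2-/- mice; each point is 1 mouse, lines mark group medians and triangles mark WT mouse 3 and Nod2-/- mouse 7. Cd14 in the 7 Nod2-/- mice lies above every WT mouse except WT mouse 3 (116.6 normalized counts), and 4 of 7 Nod2-/- mice lie below all WT mice for Tlr5.

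The LPS receptor complex was read in the order in which it handles LPS. Lbp (chr2:158306493-158332852) had 1343, 1713 and 2975 normalized counts at the lowest, median and highest WT mouse, and 1261, 3097 and 6626 in Nod2-/- mice. Of the 7 Nod2-/- mice, 4 were above all WT mice and 2 were below all of them, so the groups overlapped at both ends. The log2 fold change was 0.76 (SE 0.35, 95% confidence interval 0.02 to 1.51, adjusted p = 0.204 by edgeR), and it was 0.47 without Nod2-/- mouse 7 and 0.40 without WT mouse 3 as well. Lbp is an acute phase protein, and the other hepatocyte acute phase genes are given with it further on.

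Cd14 (chromosome 18, minus strand), a surface and soluble protein that presents LPS, had 25.2, 55.6 and 116.6 normalized counts at the lowest, median and highest WT mouse, and 60.3, 139.6 and 1021 in Nod2-/- mice. It had the largest fold change of the 10 members, 4.67-fold above the WT level (log2 2.22, SE 0.65, 95% confidence interval 0.84 to 3.61). The adjusted p was 0.0794 by edgeR and 0.0187 by DESeq2. All 7 Nod2-/- mice were above the 5 WT mice other than WT mouse 3, and 4 of 7 were above that mouse as well. Nod2-/- mouse 7 was 8.56 times the median of the other Nod2-/- mice, and without it the log2 fold change was 1.31 (SE 0.42, adjusted p = 0.141 by edgeR). Without WT mouse 3 it was 2.56 (adjusted p = 0.0413), and without both libraries 1.66 (SE 0.40, adjusted p = 0.0431).

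Tlr4 and Ly96, which form the receptor that Cd14 loads, had fold changes near 0. Tlr4 (chr4:66827584-66930284) had 24.6, 35.8 and 63.3 normalized counts at the lowest, median and highest WT mouse, and 23.9, 30.7 and 48.02 in Nod2-/- mice. Its log2 fold change was -0.24 (SE 0.23, 95% confidence interval -0.73 to 0.25, adjusted p = 0.552 by edgeR), and it was -0.04 without WT mouse 3 and -0.36 without Nod2-/- mouse 7. Ly96 (chr1:16688051-16709611) lay between 31.8 and 71.4 normalized counts among WT mice, and between 32.5 and 68.4 among Nod2-/- mice. Its 95% confidence interval, -0.48 to 0.47 on the log2 scale, leaves room for a change of either sign.

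Within each mouse, Cd14 stood higher against Tlr4 in every Nod2-/- mouse than in any WT mouse. Per length of exon, the ratio of Cd14 to Tlr4 was 3.88, 2.73, 5.91, 5.07, 4.91 and 4.95 in WT mice 1 to 6. It was 14.6, 10.3, 10.9, 28.8, 15.8, 8.10 and 68.2 in Nod2-/- mice 1 to 7. The groups did not overlap, and WT mouse 3 and Nod2-/- mouse 7 stood at the high end of their own groups. Of the 45 ratios between members this was the 1 without overlap; its mean log2 ratio differed by 1.94 between genotypes (2.15 ± 0.40 SD in 6 WT mice, 4.09 ± 1.06 SD in 7 Nod2-/- mice), with a two-sided exact permutation p = 0.00117 and an adjusted p = 0.0524 over the 45. Over all tested genes, 2.29% had a ratio to Tlr4 that was higher in all Nod2-/- mice, and Cd14 was likewise higher against 1.51% of genes. The next smallest exact permutation p among the 45 was that of Tlr3 against Tlr5 (0.00466, adjusted p = 0.0712), and 0 of 45 passed the adjustment (17 at an unadjusted exact p under 0.05).

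**Figure D2:**
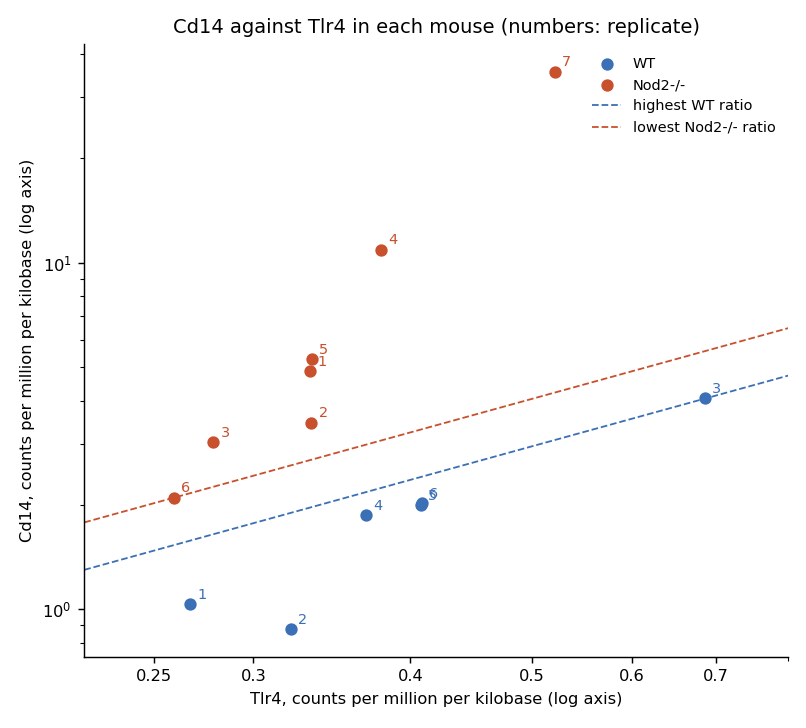
Level of Cd14 against that of Tlr4 in each mouse, both in CPM per kilobase of exon on log axes; numbers are replicates, and dashed lines run through the highest WT ratio (5.91) and the lowest Nod2-/- ratio (8.10). All 7 Nod2-/- mice lie above the WT line, with Nod2-/- mouse 6 on the other, while the Tlr4 ranges overlap.

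The summed markers of Kupffer cells, of monocytes and of neutrophils were each highest in Nod2-/- mouse 7, the mouse with the most Cd14. Single markers did not all follow. In that mouse Cd163 (54.9 normalized counts) was below the WT range (73.8 to 167.7), and Marco (28.4) was below the WT maximum (42.8). Nod2-/- mouse 4, second in Cd14 (313.1 normalized counts), had sums for Kupffer cells (311 CPM) and monocytes (71.1 CPM) within the WT range. Its neutrophil sum (21.9 CPM) was above the WT range. Nod2-/- mouse 5, next in Cd14 (151.2 normalized counts), had sums for Kupffer cells (403 CPM) and neutrophils (42.9 CPM) above the WT range. Its monocyte sum (78.6 CPM) was within that range. The Nod2-/- mice with less Cd14 than mouse 5 all had Kupffer cell sums within the WT range. Among them, all but mouse 1 (6.19 CPM) had neutrophil sums above it. Of 13 Kupffer cell and macrophage markers, all tested, 11 had a fold change above 1 in Nod2-/- mice, beside 52.3% of all genes. Of the 13, 3 were higher at an unadjusted p under 0.05, beside 12.9% of all genes, and 0 passed 5% FDR by edgeR or DESeq2. Their sum lay between 185 and 340 CPM among WT mice, and between 228 and 676 CPM among Nod2-/- mice. Of 12 neutrophil markers, 4 were tested by edgeR. All 4 were higher at an unadjusted p under 0.05, beside 12.9% of all genes, and 0 passed 5% FDR. DESeq2 called 5 of the 12, all higher, beside 3.81% of its tested genes. The sum of the 12 lay between 4.17 and 9.78 CPM among WT mice, reached at most 42.9 CPM in Nod2-/- mice 1 to 6, and was 1020 CPM in Nod2-/- mouse 7. The sum of the 8 monocyte markers lay between 42.3 and 110 CPM among WT mice and between 41.9 and 109 CPM in Nod2-/- mice 1 to 6. It was 233 CPM in Nod2-/- mouse 7. Of the 11 marker lists, 3 held a gene past 5% FDR by edgeR, 1 in each and all higher in Nod2-/- mice, beside 1.16% of all genes. Sox9 was called among 6 cholangiocyte markers, 5 of them tested (log2 fold change 1.29, adjusted p = 0.0324 by edgeR). The others were Rgs5 among 8 stellate cell markers, all tested (0.55, 0.0490), and Tcf4 among 6 plasmacytoid dendritic cell markers, 3 of them tested (0.57, 0.0422). Of the tested cholangiocyte markers 3 were higher and 2 lower (median 0.24), and of the stellate markers 4 were higher and 4 lower (median -0.01). The 3 tested plasmacytoid markers were Bst2 (0.08), Ly6d (1.18, with 11.3 to 733.8 normalized counts among WT mice) and Tcf4 (median 0.57). Siglech, Ccr9 and Klk1 had at most 8, 4 and 5 counts in any mouse and were not tested. Without Nod2-/- mouse 7, 0 genes of these lists passed, beside 0.403% of all genes. Without WT mouse 3, 2 cholangiocyte, 2 plasmacytoid, 1 stellate and 1 sinusoidal endothelial marker passed, all higher, beside 8.49% of all genes. The cholangiocyte sum was 35.8 to 216 CPM over the 6 WT mice and 107 to 402 CPM over the 7 Nod2-/- mice, highest in mouse 4. Most of that sum was Spp1 (mean 1452 normalized counts in WT mice, 3586 in Nod2-/- mice), so it mainly describes that gene. The part of all these markers in the Cd14 result was not tested. In whole liver, more cells of a type and more RNA per cell cannot be told apart.

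Among the lipoprotein receptors, Tlr1 depended on a single WT library. Tlr1 had 13.3, 15.9 and 150.9 normalized counts at the lowest, median and highest WT mouse, and 15.9, 56.5 and 123.7 in Nod2-/- mice. WT mouse 3 was the highest of all 13 mice, at 9.82 times the median of the other WT mice, and the next WT mouse had 21.3. In Nod2-/- mice, 6 of 7 were above the 5 other WT mice, and mouse 6 was not. The log2 fold change was 0.68 (SE 0.61, adjusted p = 0.516 by edgeR) in all mice and 1.93 (SE 0.41, adjusted p = 0.0199) without WT mouse 3. Without Nod2-/- mouse 7 as well it was 1.82 (SE 0.41, adjusted p = 0.0346). WT mouse 3 also had the highest sums in its group of the 8 stellate cell markers (404 CPM, against at most 278 in the other WT mice) and the 6 cholangiocyte markers (216 CPM, against at most 124). In those lists Reln (2808 normalized counts) and Spp1 (3456) were at their WT maximum in that mouse, and Hand2 (40.7) at its WT minimum. Its Kupffer cell and macrophage (340 CPM, against at most 325), sinusoidal endothelial (267, against 224) and plasmacytoid (259, against 246) sums were also the highest of WT mice. Its monocyte (97.2 CPM) and neutrophil (7.52 CPM) sums were not. The part of these markers in its Tlr1 level was not tested.

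Tlr6, its copy and the alternative partner of Tlr2, had the same shape: 18.6, 29.2 and 108.5 normalized counts at the lowest, median and highest WT mouse, the highest being WT mouse 3, and 41.0, 56.1 and 81.8 in Nod2-/- mice. All 7 Nod2-/- mice were above the 5 other WT mice, the highest of which had 34.3. The log2 fold change was 0.48 (SE 0.36, adjusted p = 0.430 by edgeR) in all mice and 1.07 (adjusted p = 0.0179) without WT mouse 3. The shared sequence printed above means that the Tlr1 and Tlr6 counts are not fully separate measurements.

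Tlr2 (chr3:83836272-83841767) had 30.8, 44.6 and 85.9 normalized counts at the lowest, median and highest WT mouse, and 25.03, 80.8 and 262.6 in Nod2-/- mice. The lowest of all 13 mice was Nod2-/- mouse 6 and the highest Nod2-/- mouse 7, at 3.30 times the median of the other Nod2-/- mice. The log2 fold change was 0.99 (SE 0.42, 95% confidence interval 0.09 to 1.89, adjusted p = 0.179 by edgeR), and it was 0.55 (SE 0.33) without Nod2-/- mouse 7.

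Tlr5, the flagellin receptor (chr1:182954788-182976044), had the largest fold change below 1 of the members. It had 100.7, 196.5 and 294.9 normalized counts at the lowest, median and highest WT mouse, and 22.9, 73.5 and 176.7 in Nod2-/- mice. Of 7 Nod2-/- mice, 4 were below all WT mice, and all 7 were below the WT median. The log2 fold change was -1.04 (SE 0.37, 95% confidence interval -1.83 to -0.26), or 0.485 times the WT level. The adjusted p was 0.120 by edgeR and 0.0484 by DESeq2. Unlike Tlr1 and Cd14 it moved little without WT mouse 3 and Nod2-/- mouse 7 (-1.02, SE 0.42). In the same libraries, all 5 tested genes of 8 lung epithelium markers were lower in Nod2-/- mice at an unadjusted p under 0.05, beside 10.2% of all genes. By edgeR 0 of them passed 5% FDR in all mice, and 3 of the 5 passed without WT mouse 3, beside 8.49% of all genes. DESeq2 called 6 of the 8, all lower, beside 3.45% of its tested genes. Those markers summed to between 13.9 and 201 CPM among WT mice, and between 2.81 and 32.7 CPM among Nod2-/- mice. Mouse by mouse, WT mouse 4 had the most of both, and WT mouse 6, with the least Tlr5 among WT mice (100.7 normalized counts), had a sum of 16.2 CPM. WT mouse 1 had the lowest WT marker sum (13.9 CPM) and the second-highest Tlr5 (221.4 normalized counts). The Nod2-/- mouse with the most Tlr5 (mouse 3) had a sum of 7.68 CPM. Their part in the Tlr5 result was not tested.

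The RNA receptors differed less. Tlr3 (chr8:45395665-45411080), the receptor of double-stranded RNA, had 66.9, 103.9 and 128.3 normalized counts at the lowest, median and highest WT mouse, and 110.4, 132.7 and 167.5 in Nod2-/- mice. Of 7 Nod2-/- mice, 5 were above all WT mice, and the SD was similar in both groups (20.5 normalized counts for WT, 21.2 for Nod2-/-). The log2 fold change was 0.42 (SE 0.15, 95% confidence interval 0.10 to 0.74, adjusted p = 0.124 by edgeR). Tlr7 (chrX:167304929-167330558), the receptor of single-stranded RNA, lay between 16.4 and 57.8 normalized counts among WT mice, and between 18.2 and 86.2 among Nod2-/- mice (log2 fold change 0.41, SE 0.35, adjusted p = 0.495 by edgeR). Its fold change was 0.15 without Nod2-/- mouse 7 and 0.66 without WT mouse 3. Myd88 (chr9:119335934-119341411) lay between 215.1 and 358.6 normalized counts among WT mice, and between 205.2 and 453.6 among Nod2-/- mice. Its 95% confidence interval ran from -0.20 to 0.49 on the log2 scale.

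**Figure D3:**
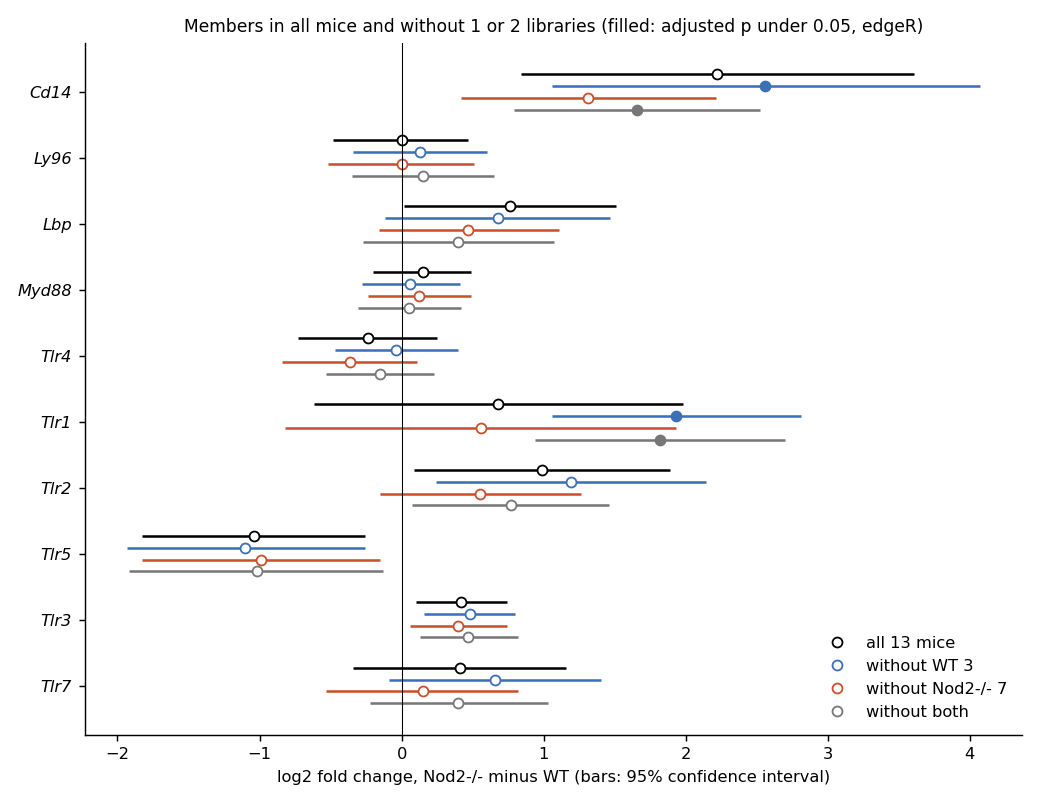
Log2 fold change (Nod2-/- minus WT) of each member with its 95% confidence interval, in all 13 mice and without WT mouse 3, without Nod2-/- mouse 7 or without both; filled points have an edgeR adjusted p under 0.05. Tlr1 moves from 0.68 to 1.93 without WT mouse 3 and Cd14 from 2.22 to 1.31 without Nod2-/- mouse 7, while Tlr3 and Tlr5 hardly move.

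Per length of exon, the members spanned a wide range of levels in liver. Lbp was highest, at a median of 25.6 CPM per kilobase over the 13 mice (range 15.7 to 82.7), followed by Myd88 at 6.61 (4.80 to 10.6). Only these neighbors in the order had ranges that did not overlap. Cd14 followed at 3.04 (0.878 to 35.6) and Ly96 at 2.84 (1.88 to 4.22), and Cd14 was above Ly96 in 5 of 13 mice. Tlr5 came next at 1.85, Tlr2 at 1.38, Tlr3 at 1.32 and Tlr1 at 0.745. Tlr7, at 0.470, and Tlr4, at 0.334 (0.259 to 0.687), were the lowest of the members. Tlr4, the receptor, was thus listed below both Cd14 and Ly96 in every mouse by this measure. Of the other Toll-like receptors, Tlr12 had a median of 1.98 CPM per kilobase, Tlr6 0.697, Tlr13 0.517 and Tlr8 0.249, and Tlr9 and Tlr11 were too low to test. The order depended on the length used. With the longest transcript in place of all exon bases, the median of Ly96 (4.35) was above that of Cd14 (3.21). Likewise Tlr3 (1.56) was then above Tlr2 (1.38), and Lbp was at 49.0.

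**Figure D4:**
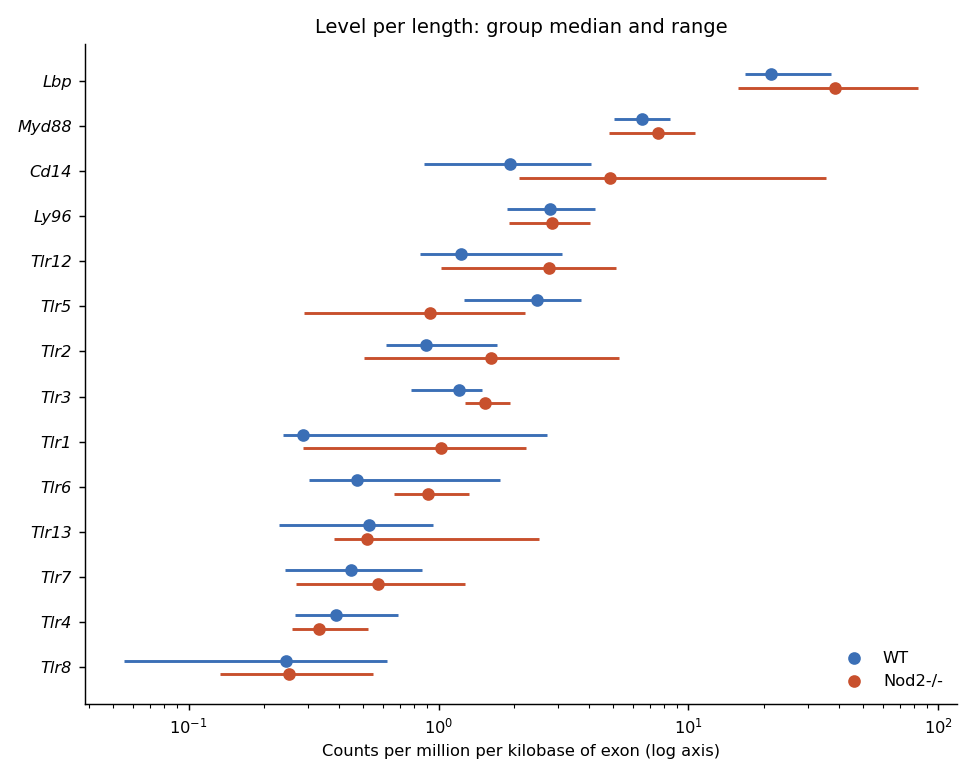
Level of the members and of Tlr6, Tlr8, Tlr12 and Tlr13 in CPM per kilobase of exon (log axis); points are group medians and bars run from the lowest to the highest mouse of 6 WT and 7 Nod2-/- mice. Lbp has the highest median in both groups, though its Nod2-/- range (15.7 to 82.7) overlaps that of Cd14; Tlr4 (0.259 to 0.687) is near the bottom, and Cd14 ran from 2.1 to 35.6 in Nod2-/- mice.

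Some members moved together from mouse to mouse within a genotype. After the genotype mean was removed from log2 CPM, 8 of 45 pairs of members passed 5% FDR by Pearson correlation and 3 by both Pearson and Spearman correlation (permutation tests over 13 mice, 100000 resamples, adjusted over the 45). Tlr4 and Cd14 had r = 0.87 (permutation p = 3e-05, adjusted 0.00135) and rho = 0.89 (permutation p = 8e-05, adjusted 0.00360), and r was 0.81 without WT mouse 3 and Nod2-/- mouse 7, the mice farthest from the median of Tlr4. Their level therefore rose and fell together within each genotype (r = 0.94 in WT mice, 0.97 in Nod2-/- mice), although their ratio differed between genotypes. Tlr2 and Tlr7 had r = 0.90 (permutation p = 7e-05, adjusted 0.00157) and rho = 0.85 (permutation p = 0.00061, adjusted 0.00915), and r was 0.82 without the 2 farthest mice. Lbp and Myd88 had r = 0.80 (permutation p = 0.00377, adjusted 0.0273) and rho = 0.87 (permutation p = 0.00042, adjusted 0.00915), and r was 0.90 without the 2 farthest mice.

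The genes most like each member by the same genotype-centered Spearman correlation, out of 11497 genes and over 13 mice, are given as a description. They were Nckap1l and Soat1 for Tlr2 (rho 0.97 for both), Lair1 and Ptprc for Tlr7 (0.96 and 0.95), and Psmd10 and Igsf8 for Cd14 (0.97 and 0.95). For Tlr4 they were Ifi27l2b and Myo7b (0.95 and 0.93), for Tlr5 Gorasp1 and Trak1 (0.98 for both), and for Tlr1 Grk3 and Gm12840 (0.94 and 0.92). For Tlr3 they were D130017N08Rik and Wdfy1 (0.92 for both), and for Ly96 Ptgr1 and Aig1 (0.91 for both). For Lbp they were Klhdc8a and C1rb (0.96 and 0.95), and for Myd88 St6galnac6 and Mlycd (0.95 and 0.93). Ptprc encodes CD45, the surface marker of white blood cells.

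Within 1 Mb of each member, 0 tested genes passed 5% FDR by edgeR, among 1 (Tlr4) to 22 (Cd14) tested there. Chromosome 18, which carries Cd14, had 12 of 323 tested genes past 5% FDR (3.72%), beside 1.10% of genes elsewhere.

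Of the 71 tested genes in 7 lists of the pathway, 1 passed 5% FDR by edgeR, a share near that of all genes. With so few calls, the lists cannot be told apart by them. In each list, the count of genes past 5% FDR is read beside 1.16% of all genes, and the median log2 fold change beside 0.02. Counts at an unadjusted p under 0.05 are read beside 23.1% of all genes, and DESeq2 calls beside 7.26% of its tested genes. Of 7 tested adaptors, chaperones and co-receptors, 0 passed (1 at an unadjusted p under 0.05, 0 by DESeq2) and the median was 0.08. Unc93b1, which carries the endosomal receptors to their compartment, was at 0.33 (adjusted p = 0.136 by edgeR), Tirap at -0.27 (0.224) and Ly86 at 0.47 (0.363), or 0.24 without Nod2-/- mouse 7. Of 18 genes of the relay to NF-kB and the interferon regulatory factors, 0 passed (2 at an unadjusted p under 0.05, 0 by DESeq2) and the median was 0.08, with Irak1 at -0.26 (adjusted p = 0.128 by edgeR), Irf7 at 0.61 (0.139) and Chuk at -0.23 (0.220). Of 10 tested inhibitors of the pathway, 0 passed (4 at an unadjusted p under 0.05, 1 by DESeq2, Tnfaip3) and the median was 0.24. Tnfaip3, which encodes the NF-kB inhibitor A20, was at 1.11 (SE 0.36, adjusted p = 0.0978 by edgeR) with 5 of 7 Nod2-/- mice above all WT mice (0.66 without Nod2-/- mouse 7), while Tollip was at -0.18 and Dusp1 at -0.55. Of 4 other tested Toll-like receptors, 0 passed (1 at an unadjusted p under 0.05, 0 by DESeq2) and the median was 0.63. Tlr12, a profilin receptor, was at 0.85 (adjusted p = 0.199) and Tlr13, a receptor of bacterial ribosomal RNA, at 0.77 (0.322). Without Nod2-/- mouse 7 the median of these receptors was 0.37 and Tlr13 was at 0.29.

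The 1 call in the pathway lists was among the genes that Toll-like receptors induce. Of 20, 8 were tested, and 1 passed 5% FDR: Icam1, an adhesion molecule for white blood cells, rose from 159.1 ± 60.4 normalized counts (SD, n = 6) in WT mice to 369.0 ± 138.4 (n = 7) in Nod2-/- mice (log2 fold change 1.21, SE 0.28, adjusted p = 0.0490 by edgeR). This call was lost in 9 of the 13 fits that left out 1 mouse: without WT mouse 1, 2, 4, 5 or 6, or Nod2-/- mouse 4, 5, 6 or 7. Over the 13 fits its log2 fold change was 1.06 to 1.37 and its adjusted p 0.0180 to 0.115. Nfkbiz, which encodes the NF-kB cofactor IkB-zeta, lay between 79.6 and 145.8 normalized counts among WT mice, and between 146.7 and 567.4 among Nod2-/- mice, so that the groups did not overlap, as held for 0.753% of all genes in that direction. Its log2 fold change was 1.29 (SE 0.30, adjusted p = 0.0526 by edgeR), and 1.24 (0.0388) without WT mouse 3. The neutrophil chemokine gene Cxcl1 was at 1.56 (adjusted p = 0.0960) and the cytokine gene Il1b at 1.41 (0.147), and the list's median was 1.21. Without Nod2-/- mouse 7 Il1b and the list's median were both at 0.66. Not every target followed: Il1a was at -0.01 and Cxcl10 at 0.25 (0.63 without WT mouse 3; for Il1a, 0.11 without WT mouse 3 and -0.30 without Nod2-/- mouse 7), and Il6, Il10, Il12b and Ifnb1 had at most 4 counts in any mouse.

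Hepatocyte acute phase genes, which respond to cytokines that Toll-like receptors induce, had fold changes mostly above 1, as Lbp had. Of 21 tested, 19 had a log2 fold change above 0 (52.3% of all genes) and 14 were higher at an unadjusted p under 0.05 (12.9%). The median was 0.81, but 0 passed 5% FDR by edgeR. DESeq2 called 7, all higher, beside 3.81% of its tested genes. Apcs, serum amyloid P, was at 1.79 (SE 0.47, adjusted p = 0.0659 by edgeR) with 6 of 7 Nod2-/- mice above all WT mice. Saa2, serum amyloid A2, was at 4.04 (SE 1.11, adjusted p = 0.0712), and Lcn2, lipocalin 2, was at 3.86 (SE 1.08, adjusted p = 0.0734). Without Nod2-/- mouse 7 these were 1.28, 2.70 and 2.43, and the list's median was 0.71. Without WT mouse 3 Lcn2 was at 4.46 (adjusted p = 0.0385). Of the genes that move or inactivate LPS, 3 were tested and 0 passed (2 at an unadjusted p under 0.05 and 2 by DESeq2, Alpl and Pltp), with a median of 0.23. Alpl, alkaline phosphatase, which removes phosphate from LPS, was at -0.64 (SE 0.17, adjusted p = 0.0659 by edgeR), Pltp, which transfers LPS between lipoproteins, at 0.64 (0.0986), and Scarb1 at 0.23. Without WT mouse 3 Alpl was at -0.72 (0.0275) and Pltp at 0.75 (0.0459).

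**Figure D5:**
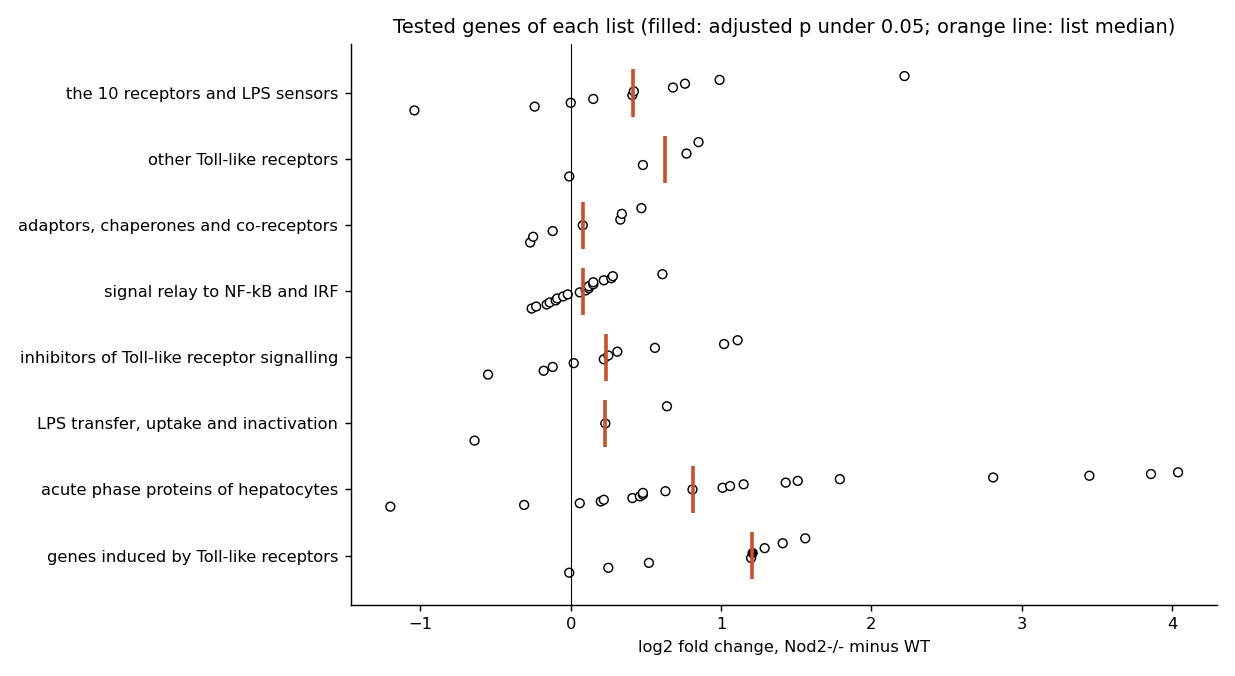
Log2 fold change (Nod2-/- minus WT) of each tested gene in the members and in 7 lists of the pathway; each point is a gene, filled where the edgeR adjusted p is under 0.05, and orange lines are list medians. Icam1 is the only filled point; the relay genes cluster near 0 (median 0.08) and the acute phase genes reach 4.04.

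Promoters from RefSeq (GRCm38.p6, 250 bases before to 50 after each start) were at hand for 5 members, Tlr1, Tlr2, Tlr3, Tlr5 and Myd88, in 6 windows. They were searched on both strands for NF-kB sites, the interferon element (GAAA, any 2 bases, GAAA), the PU.1 core GAGGAA, AP-1 sites TGANTCA and the CCAAT box. The 30 bases around each match other than CCAAT boxes follow, with the match in capitals, because these are the factors that the pathway activates or that myeloid cells use.
Tlr2, NF-kB, chr3:83841761-83841790: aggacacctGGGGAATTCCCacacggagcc
Tlr2, NF-kB, chr3:83841597-83841626: ccctgacctgGGGACATCCCcttccctcac
Tlr3, NF-kB, chr8:45410572-45410601: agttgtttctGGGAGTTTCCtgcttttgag
Myd88, interferon element, chr9:119340039-119340068: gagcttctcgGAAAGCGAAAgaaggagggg
Tlr1, PU.1 core, chr5:64933564-64933593: aattaaatgttgGAGGAAgtaggagcttga
All 5 are written on the minus strand, that of the genes. The first Tlr2 window holds 2 overlapping NF-kB matches. An NF-kB match occurred in 8.46% of all 32851 promoters, the interferon element in 3.44%, the PU.1 core in 28.3%, the AP-1 site in 7.81% and the CCAAT box in 37.4%. In the Tlr5 window the CCAAT box was the 1 match. A match describes letters in the window and no binding was measured.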

How the data were processed

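Liver polyA RNA was sequenced as 43-base read pairs on stranded libraries, 1 per mouse. Per the study's methods the authors ran Trimmomatic 0.33, then TopHat2 2.1.1 against GRCm38 (GENCODE M16); the counting program and strand setting are not given in the sources used here. The deposited table holds raw counts per gene. Groups came from the genotype label. Genes were filtered by expression (13545 kept, holding 99.86% of counts), scaled by TMM and tested by edgeR 4.0.16 (quasi-likelihood, R 4.3.3) with Benjamini-Hochberg adjustment at 5%. Standard errors are the log2 fold change divided by the root of F. Alternatives were DESeq2 1.42.0, limma 3.58.1 (voom with quality weights), other scaling and filters, a replicate block and leaving out mice. For normalized counts, each library was brought to the mean TMM-adjusted size; CPM used the same sizes. Positions and exon lengths are from GENCODE M21, on the same build. The scripts were tested on simulated counts.

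The members and lists were chosen with earlier results of these data known. Named genes were the members, the other Toll-like receptors, in each list every gene past 5% FDR and up to 3 more with the smallest p, and for each member the 2 genes of average log2 CPM of at least 1 with the highest centered Spearman correlation; Il1a, Cxcl10, Il6, Il10, Il12b, Ifnb1, Sox9, Rgs5 and Tcf4 were added after their values were seen. The 45 ratios, and leaving out both WT mouse 3 and Nod2-/- mouse 7, were also added then. Sequences are from RefSeq and GENCODE. Each of the 36 pairs of libraries within a group differed beyond counting noise. Each mouse is 1 replicate, and depth of 13824780 to 20579984 counts limits genes near 10 counts or fewer.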

Additional observations from a re-analysis of the deposited data

Results flagged for a closer look

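For each member in each genotype, the highest and lowest mouse was compared with its nearest neighbor as a share of the group's range (Dixon's test at 95%). Of 20 groups examined, 6 were beyond the critical value, where about 1 in 20 would be for independent, normally distributed values. The counts were compared without logarithms, the same mice entered every comparison and some members moved together, so that rate is only a rough guide. The Tlr7 share equals the critical value (0.625) as rounded. WT mouse 3 was the high mouse in 4: Tlr1 (gap share 0.942, 150.9 normalized counts against 13.3 to 21.3 in the other WT mice), Tlr4 (0.662, 63.3 against 24.6 to 37.7), Tlr7 (0.625, 57.8 against 16.4 to 31.9) and Cd14 (0.640, 116.6 against 25.2 to 58.1). Nod2-/- mouse 7 was the high mouse in 2: Tlr2 (0.661, 262.6 against 25.03 to 105.5 in the other Nod2-/- mice) and Cd14 (0.737, 1021 against 60.3 to 313.1).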

How the results depend on the processing

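The count of members past 5% FDR was 0 in all mice and 2 by DESeq2 (Cd14 and Tlr5), 2 without WT mouse 3 (Cd14 and Tlr1) and 2 without both WT mouse 3 and Nod2-/- mouse 7; it was 0 to 2 over the 13 fits that left out 1 mouse. The count over all genes, 157, was 1154 by DESeq2, 843 by voom with quality weights, 567 without both mice and 41 to 1156 without 1 mouse. The lower counts came without WT mouse 1 (41), 2 (45), 4 (42) or 5 (52) and without Nod2-/- mouse 4 (67), 6 (81) or 7 (54), and the higher without WT mouse 3 (1156); fewer samples were tested in each. In the pathway lists, 1 gene passed in all mice, 13 by DESeq2, 4 by voom, 4 without both mice, 2 with no filter on low counts, and 0 to 6 without 1 mouse, with 0 in 9 of those 13 fits. Replicate numbers did not pair the mice: correlations of same-numbered deviations ran from -0.30 to 0.30. With a replicate block, 35 genes passed (0.258%), 0 members and 0 genes of the pathway lists (Icam1 adjusted p = 0.0719).

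Of the 10 members, 9 kept their direction under all 20 alternatives. Ly96, at 0.00 in all mice, ranged from -0.11 to 0.15 and changed sign in 8 of 20 (0.01 with a replicate block, 0.12 by voom, 0.13 without WT mouse 3). Lbp ranged from 0.39 to 0.95, Tlr2 from 0.54 to 1.19, Cd14 from 1.28 to 2.56, Tlr3 from 0.32 to 0.48 and Tlr5 from -1.26 to -0.87. Among the members, counts per mouse were as low as 12 in WT mice (Tlr1), where counting error is largest.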
